A study of Homo sapiens with 9 samples.

Results

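RNase P and RNase MRP are related ribonucleoprotein endonucleases that share most of their protein subunits, and the 10 genes described here encode those proteins: POP1, POP4, POP5, POP7, RPP14, RPP21, RPP25, RPP30, RPP38 and RPP40. They were chosen by symbol, and each symbol matched 1 of the 61853 genes in the deposited table. All libraries came from 293T, a widely used cell line derived from human embryonic kidney that expresses the large T antigen of SV40. In 3 libraries the cells had received DIS3-sh1, an shRNA against DIS3, the catalytic subunit of the nuclear exosome, which degrades and trims RNA, and in 3 libraries they had received a scramble shRNA (Scramble), with genotypes labelled as DIS3 knockdown and WT. A second shRNA, DIS3-sh2, is named in the labels and is not analysed here, so every result below rests on a single shRNA sequence. How the shRNAs were delivered, and how long before harvest, is not given in the sources used here. The series title places the study on circular RNA expression after loss of DIS3, and each value below is a gene total that does not separate circular from linear RNA.

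Ribonuclease P removes the 5′ leader of precursor tRNAs, and its catalytic centre is an RNA, RPPH1. Ribonuclease MRP is built on another RNA, RMRP, and cuts the precursor of ribosomal RNA between the small and large subunit sequences in the nucleolus. In the human particles POP1 is the large scaffold protein, POP7 (also called RPP20) and RPP25 form a pair of Alba-type proteins, POP5, RPP14, RPP30 and RPP40 form another module, and RPP21, POP4 (also called RPP29) and RPP38 form the last one. RPP21 is known as a subunit of RNase P that RNase MRP lacks.

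The promoters of the genes were searched for short sequences after the calls were known. Shown here are 5 of them, those of the 4 genes that hold the NRF1 sequence and that of RPP21, the gene that was not called. RefSeq promoter sequences (GRCh38.p14, 250 bases before to 50 bases after the gene start) were matched for 9 of the 10 genes, all but POP1. The core of the binding motif of the transcription factor NRF1 was searched on both strands, and 4 of the 9 promoters held a match, against 5.78% of 35116 promoters of all genes and 7.39% of 22199 promoters of coding genes. The 180 bases from 150 before the RefSeq start are printed 5′ to 3′, with each match in capitals.
POP7 (chr7:100705971-100706150, plus strand): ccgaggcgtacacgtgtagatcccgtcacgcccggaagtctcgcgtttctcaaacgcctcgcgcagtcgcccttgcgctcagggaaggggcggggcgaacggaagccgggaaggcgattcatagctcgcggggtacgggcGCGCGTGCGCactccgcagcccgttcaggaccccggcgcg
RPP14 (chr3:58306370-58306549, plus strand): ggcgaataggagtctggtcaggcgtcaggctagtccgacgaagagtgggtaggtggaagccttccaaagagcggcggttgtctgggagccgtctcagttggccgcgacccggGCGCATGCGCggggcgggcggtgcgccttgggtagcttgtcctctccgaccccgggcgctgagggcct
POP4 (chr19:29606133-29606312, plus strand): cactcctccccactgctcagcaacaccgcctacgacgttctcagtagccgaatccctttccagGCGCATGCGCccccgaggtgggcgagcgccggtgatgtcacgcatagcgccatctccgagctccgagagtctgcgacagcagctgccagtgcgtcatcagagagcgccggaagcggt
RPP38 (chr10:15097205-15097384, plus strand): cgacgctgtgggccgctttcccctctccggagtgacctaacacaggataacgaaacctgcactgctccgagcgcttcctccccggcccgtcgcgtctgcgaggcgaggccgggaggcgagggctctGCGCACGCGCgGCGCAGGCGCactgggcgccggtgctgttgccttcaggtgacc
RPP21 (chr6:30345006-30345185, plus strand): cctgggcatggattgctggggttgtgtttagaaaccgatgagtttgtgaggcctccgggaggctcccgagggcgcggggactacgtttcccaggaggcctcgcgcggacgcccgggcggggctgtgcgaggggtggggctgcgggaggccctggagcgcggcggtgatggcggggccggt

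With the first base of the RefSeq gene counted as 0, the matches began at -10 in POP7, -38 in RPP14, -87 in POP4 and at -24 and -13 in RPP38. These positions depend on the annotation, since the RefSeq starts differ from the GENCODE gene starts given below. In RPP14, POP4 and RPP38 the printed bases begin after the GENCODE start of the gene. The pair in RPP38 did not overlap, and no NRF1 match overlapped a match of the other sequences searched. The promoters of RPP25, POP5, RPP30 and RPP40, which also fell, and that of RPP21 held no match within the full window. The other sequences searched on both strands were the GC box GGGCGG, in 7 of the 9 promoters and 56.3% of coding promoters, the CCAAT box ATTGG (4 of 9, and 34.7%), the ETS core CCGGAAG (2 of 9, and 12.8%), the E-box CACGTG (1 of 9, and 8.34%) and the TATA box TATAAA (0 of 9, and 9.47%). A match is a description of these letters in this window and says nothing of binding in these cells. Whether any of these sequences bears on the lower levels was not tested.

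The libraries held 19800892 to 21100677 counts in DIS3-sh1 and 20722775 to 23532148 counts in Scramble. DIS3 itself measured 26.6, 27.8 and 27.9 CPM (counts scaled by library size and TMM factor) in the DIS3-sh1 libraries, against 175.8, 186.1 and 177.1 CPM in the Scramble libraries. All 5 genes listed as markers of 293T were detected, with sums of 277.5 to 285.3 CPM in DIS3-sh1 and 394.4 to 401.7 CPM in Scramble. LIN28B (100.2 to 104.4 CPM in DIS3-sh1 and 165.1 to 175.4 CPM in Scramble), HOXA9 (31.6 to 34.3 CPM in DIS3-sh1 and 61.0 to 62.8 CPM in Scramble), NEFL and NEFM lay lower in every DIS3-sh1 library. PAX2 lay higher, with 4.05 to 4.75 CPM in DIS3-sh1 and 1.10 to 2.28 CPM in Scramble. Of 8 markers of other cell types, CD3E and HBB had no count in any library, and COL1A1, at 23.4 to 27.4 CPM in DIS3-sh1 and 14.3 to 15.2 CPM in Scramble, was the one above 1 CPM. The share of counts from small structural RNAs was 8.25% to 9.38% in DIS3-sh1 and 4.95% to 5.15% in Scramble. With these genes and the mitochondrial and ribosomal RNA genes left out of the library sizes, the same number of the 10 genes was called.

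All 10 genes passed the filter on low counts, and in 9 of them the DIS3-sh1 level was called lower at an adjusted p under 0.05 over 19591 genes (quasi-likelihood test of edgeR). None was higher, and RPP21 was not called. Over all tested genes 32.6% were called lower and 34.5% higher, 67.0% together, and among 13816 tested coding genes 38.7% were called lower. The median log2 fold change of the 10 genes was -0.74, that of all tested genes 0.02 and that of coding genes -0.01. For the 9 genes that fell, every DIS3-sh1 library lay below every Scramble library, as it did for 34.2% of all tested genes and 39.8% of coding genes, and groups apart in either direction were seen for 69.8% of tested genes. A log2 fold change of -0.5 or below together with a call was seen for 8 of the 10 genes, 15.7% of all tested genes and 16.4% of coding genes. The genes lie on 8 chromosomes. In bulk RNA, fewer cells that express a gene and less of its RNA per cell cannot be told apart.

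**Figure D1:**
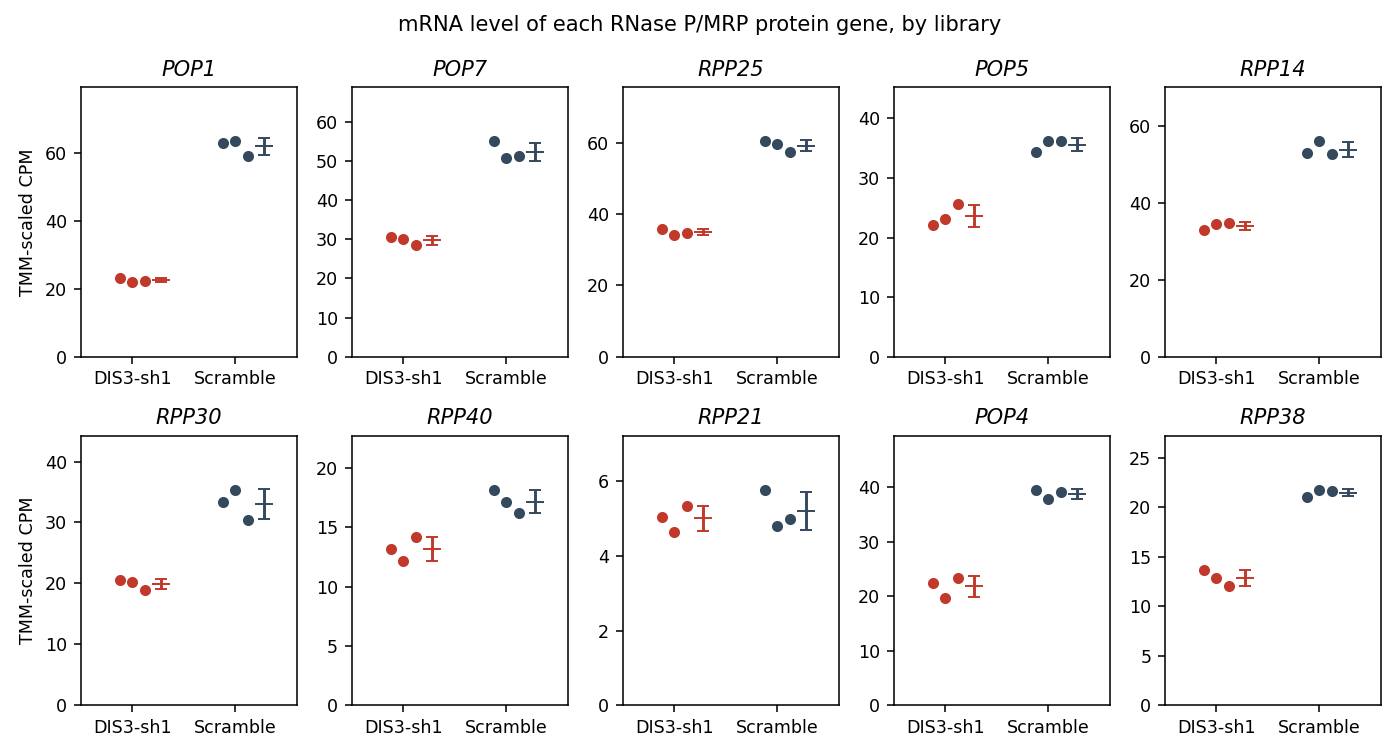
TMM-scaled CPM of each of the 10 genes in the 3 DIS3-sh1 libraries and the 3 Scramble libraries (points), with the group mean ± SD beside them, on axes that start at 0. In 9 panels the DIS3-sh1 points lie below all Scramble points, and in the RPP21 panel the groups overlap.

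POP1, the scaffold of both enzymes, fell the most. Its hg38 position is 98117297 to 98159834 on the plus strand of chromosome 8. POP1 measured 23.1, 22.1 and 22.4 CPM in the DIS3-sh1 libraries, against 63.0, 63.4 and 59.1 CPM in the Scramble libraries. The groups stood far apart and neither had a library out of line. The means were 22.5 ± 0.50 CPM in DIS3-sh1 and 61.8 ± 2.37 CPM in Scramble (SD, n = 3 each), so that DIS3-sh1 had 0.364 of the Scramble level. By edgeR's quasi-likelihood test the log2 fold change was -1.46 with an SE of 0.06, and the adjusted p was 1.96e-20. All fold changes below come from the same fit, with ± for the SE. A log2 fold change at or below that of POP1 was found for 1.09% of all tested genes and 0.731% of coding genes. Its 95% interval, -1.57 to -1.34, did not overlap the interval of any of the other 9 genes. RIDA, an enzyme gene that is transcribed away from POP1 and starts next to it, measured 18.5, 23.0 and 18.5 CPM in DIS3-sh1, against 19.3, 21.97 and 20.2 CPM in Scramble. Those groups overlapped, RIDA was not called (log2 fold change -0.04 ± 0.08, adjusted p = 0.711), and it was chosen after its values were seen.

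Both Alba-type genes fell by similar amounts. POP7, a gene of chromosome 7 (100706053 to 100707495, plus strand), measured 30.6, 30.1 and 28.5 CPM in DIS3-sh1, against 55.05, 50.9 and 51.2 CPM in Scramble. Its log2 fold change was -0.82 ± 0.06 (adjusted p = 4.17e-14). RPP25, on the minus strand of chromosome 15 (74954416 to 74957464), measured 35.9, 34.2 and 34.8 CPM in DIS3-sh1, against 60.5, 59.7 and 57.5 CPM in Scramble, a log2 fold change of -0.76 ± 0.05 (adjusted p = 2.73e-14). In both genes the libraries of a group lay close together and the groups were well separated. The ratio of POP7 to RPP25 per kb of exon was 2.63 ± 0.10 in DIS3-sh1 and 2.73 ± 0.09 in Scramble, and its ranges overlapped. SCAMP5, a secretory carrier membrane protein gene that shares 246 bases with RPP25 on the other strand, moved the other way, at 11.2, 9.58 and 9.99 CPM in DIS3-sh1 against 6.37, 7.44 and 6.85 CPM in Scramble (log2 fold change 0.58 ± 0.11).

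RPP25L, the paralog of RPP25 on chromosome 9, was not called. It measured 23.6, 17.9 and 19.7 CPM in DIS3-sh1, against 19.99, 18.2 and 17.1 CPM in Scramble, and the groups overlapped (log2 fold change 0.14 ± 0.09, adjusted p = 0.147). Leaving out DIS3-sh1 replicate 2 (adjusted p = 0.028) or scaling by the upper quartile (adjusted p = 0.0252) gave a call as higher. Without DIS3-sh1 replicate 1, its highest library, the log2 fold change was 0.03 (adjusted p = 0.801). The ratio of RPP25L to RPP25 per kb of exon was 1.84, 1.46 and 1.58 in the DIS3-sh1 libraries, against 0.923, 0.851 and 0.831 in the Scramble libraries, so that the paralog was the higher gene of the pair in every DIS3-sh1 library and the lower one in every Scramble library. An exact two-sided permutation test of this log2 ratio gave p = 0.1, the smallest value that 3 against 3 libraries allow, with the same value after Benjamini-Hochberg adjustment over the 3 ratios tested. These ratios were not among the planned tests. Each set a gene that was not called over a gene called lower, so their p adds no support to those calls. The 95% intervals of the fold changes, -0.03 to 0.32 for RPP25L and -0.87 to -0.66 for RPP25, did not overlap.

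The module of POP5, RPP14, RPP30 and RPP40 fell as a whole, least in RPP40. POP5 lies on chromosome 12 (120578764 to 120581398, minus strand) and belongs to the conserved core with RPP30. It measured 22.1, 23.2 and 25.6 CPM in DIS3-sh1, against 34.3, 36.2 and 36.2 CPM in Scramble (log2 fold change -0.59 ± 0.07, adjusted p = 2.10e-09). RPP30, on chromosome 10 (90871716 to 90908553, plus strand), measured 20.5, 20.3 and 18.9 CPM in DIS3-sh1, against 33.3, 35.4 and 30.4 CPM in Scramble (log2 fold change -0.73 ± 0.07, adjusted p = 7.50e-11). The lowest Scramble library of RPP30 still lay far above its highest DIS3-sh1 library. RPP40, on chromosome 6 (4994732 to 5004063, minus strand), showed the smallest called change, with 13.2, 12.2 and 14.2 CPM in DIS3-sh1 against 18.2, 17.1 and 16.2 CPM in Scramble (log2 fold change -0.38 ± 0.09, adjusted p = 0.000219). Its groups came within a few CPM of each other without overlapping. Of the 9 genes that fell, RPP40 was also the one whose log2 fold change stayed above -0.5.

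RPP14 shares its transcript with another protein. In human cells its mRNA also encodes HTD2, a mitochondrial dehydratase of fatty acid synthesis, and the annotation lists HTD2 as a gene of its own within RPP14 on chromosome 3 (58306262 to 58318574 within 58306247 to 58324695, both on the plus strand). RPP14 measured 33.0, 34.5 and 34.9 CPM in DIS3-sh1, against 53.0, 56.1 and 52.6 CPM in Scramble, a log2 fold change of -0.66 ± 0.05 (adjusted p = 1.95e-12). HTD2 measured 19.5, 19.9 and 19.7 CPM in DIS3-sh1, against 28.3, 31.3 and 29.5 CPM in Scramble, a log2 fold change of -0.59 ± 0.07. Both genes were separated between the groups, and reads of the shared exons may have been split between them. With the counts of both added, the log2 fold change was -0.64.

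In the last module POP4 and RPP38 fell and RPP21 did not pass the test. POP4, on chromosome 19 (29604017 to 29617237, plus strand), measured 22.5, 19.7 and 23.3 CPM in DIS3-sh1, against 39.6, 37.8 and 39.1 CPM in Scramble, a log2 fold change of -0.83 ± 0.07 (adjusted p = 1.22e-12), next to POP1 in size. RPP38, a protein of the L7Ae family that binds kink-turn RNA, measured 13.7, 12.9 and 12.1 CPM in DIS3-sh1, against 21.1, 21.8 and 21.6 CPM in Scramble (log2 fold change -0.74 ± 0.08, adjusted p = 1.09e-09). Both genes had clear gaps between the groups. RPP38 lies on the plus strand of chromosome 10 (15097180 to 15139818), and 2 genes overlap it on the other strand. NMT2, an N-myristoyltransferase gene, shares 37235 bases with it and fell less (log2 fold change -0.28 ± 0.05). RPP38-DT, the divergent transcript of its promoter, was low in every library, with 0.19, 0.35 and 0.33 CPM in DIS3-sh1 against 0.60, 0.57 and 0.68 CPM in Scramble. Its call as lower (log2 fold change -1.08 ± 0.45, adjusted p = 0.0326) was lost in 8 of 14 alternative settings, among them each left-out library, with adjusted p up to 0.145.

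RPP21, a subunit of RNase P that RNase MRP lacks, had the lowest level and the smallest change of the 10 genes. It measured 5.04, 4.64 and 5.33 CPM in DIS3-sh1, against 5.77, 4.81 and 4.99 CPM in Scramble, and the groups overlapped. Its counts, 93.0 to 111.8 in a DIS3-sh1 library and 100.8 to 134.0 in a Scramble library, were the lowest of the 10 genes. The log2 fold change was -0.06 ± 0.14 (edgeR quasi-likelihood test, adjusted p = 0.729), and it was 0.02 with upper-quartile scaling and 0.03 without Scramble replicate 1. The 95% interval of -0.33 to 0.22 overlapped that of RPP40, -0.56 to -0.21, and none of the other 8. RPP21 lies on chromosome 6 (30345131 to 30346884, plus strand), and 1724 of its bases also belong to TRIM39-RPP21, a gene that reads through from TRIM39 on the same strand. TRIM39-RPP21 measured 6.97, 6.68 and 7.76 CPM in DIS3-sh1, against 8.53, 7.24 and 7.44 CPM in Scramble (log2 fold change -0.12 ± 0.12, adjusted p = 0.369). Reads may have been split between these genes as well. With both counts added the log2 fold change was -0.09 and RPP21 was still not called (adjusted p = 0.39).

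**Figure D2:**
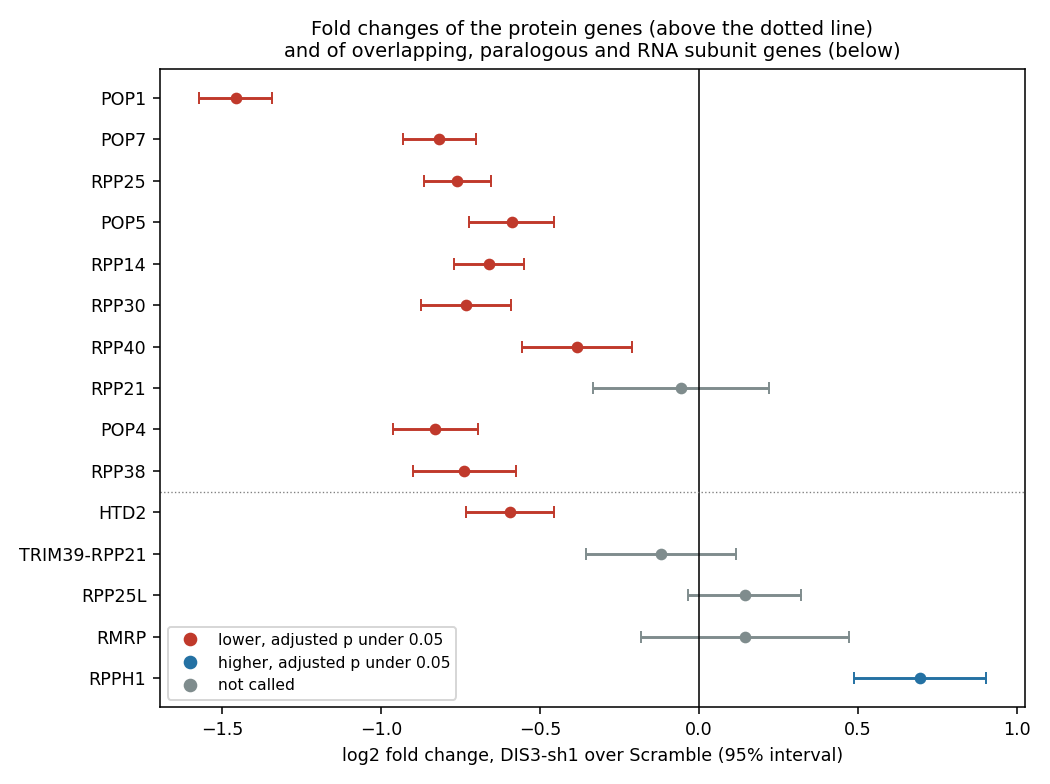
Log2 fold change of DIS3-sh1 over Scramble with its 95% interval, for the 10 protein genes above the dotted line and for overlapping, paralogous and RNA subunit genes below it, coloured by the call of the edgeR test. POP1 stands alone at -1.46, 8 genes lie between -0.83 and -0.38, and the interval of RPP21 spans 0.

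**Figure D3:**
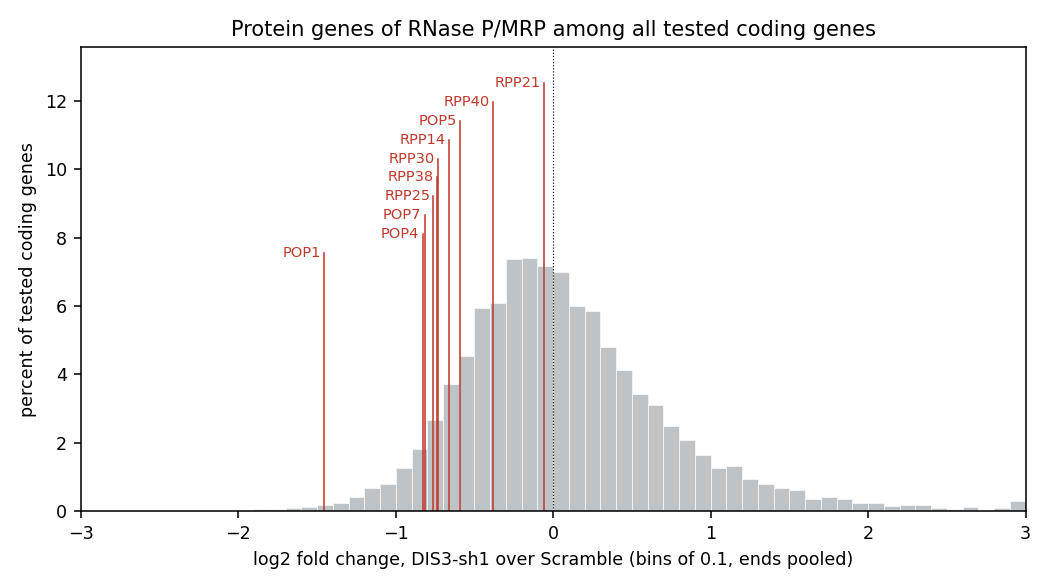
Percent of tested coding genes in each bin of log2 fold change (grey bars), with the 10 protein genes as labelled red lines whose heights have no meaning. Coding genes centre near 0, and 8 of the 10 genes lie at -0.5 or below.

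The relative levels of the subunit mRNAs differed between the groups. Levels were compared per kb of exon, since longer transcripts give more reads. Summed over the 10 genes, the level was 86.3, 84.2 and 85.2 CPM per kb in the DIS3-sh1 libraries, against 147.6, 143.8 and 140.9 CPM per kb in the Scramble libraries. POP7 was the highest gene, with 30.1 ± 1.11 CPM per kb in DIS3-sh1 and 53.0 ± 2.35 in Scramble, that is 35.3% and 36.8% of the sum. RPP25 and POP5 followed in both groups, and their ranges overlapped in DIS3-sh1 and not in Scramble. POP1 had rank 6 in DIS3-sh1, with 4.64 ± 0.10 CPM per kb, and rank 4 in Scramble, with 12.7 ± 0.49 CPM per kb, and its share of the sum was 5.44% in DIS3-sh1 and 8.84% in Scramble. With the longest transcript as gene length POP1 had rank 8 in DIS3-sh1 and rank 5 in Scramble.

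In DIS3-sh1 the order of the others was RPP40 (6.72 ± 0.51 CPM per kb), RPP38 (6.67 ± 0.40), POP1, RPP30 (4.27 ± 0.19), RPP14 (4.07 ± 0.12), POP4 (3.32 ± 0.29) and RPP21 (3.11 ± 0.22), where the ranges of RPP40 and RPP38, of RPP30 and RPP14 and of POP4 and RPP21 overlapped. In Scramble it was POP1, RPP38 (11.1 ± 0.20 CPM per kb), RPP40 (8.75 ± 0.49), RPP30 (7.10 ± 0.53), RPP14 (6.44 ± 0.23), POP4 (5.91 ± 0.14) and RPP21 (3.23 ± 0.32), where the ranges of RPP30 and RPP14 overlapped. The overlap of POP4 and RPP21 in DIS3-sh1 held with union exon length alone, since with the longest transcript POP4 stood above RPP21 in both groups, at 6.45 and 3.35 CPM per kb in DIS3-sh1 and at 11.5 and 3.48 CPM per kb in Scramble. The ratio of RPP21 to POP4 per kb was 0.918, 0.964 and 0.936 in the DIS3-sh1 libraries, against 0.597, 0.521 and 0.523 in the Scramble libraries, and that of RPP21 to RPP38 was 0.469 ± 0.05 in DIS3-sh1 and 0.291 ± 0.03 in Scramble. Neither ratio overlapped between the groups. Each gave an exact permutation p = 0.1, the smallest possible here and the value that groups without overlap always give. Both set RPP21, which was not called, over a gene called lower, so this p is no further support. A change of gene length multiplies such a ratio by the same factor in every library. With the longest transcript the levels were 2.38 times as high for POP5, 1.94 times for POP4 and 1.80 times for RPP30, and POP5 was above RPP25 in both groups.

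**Figure D4:**
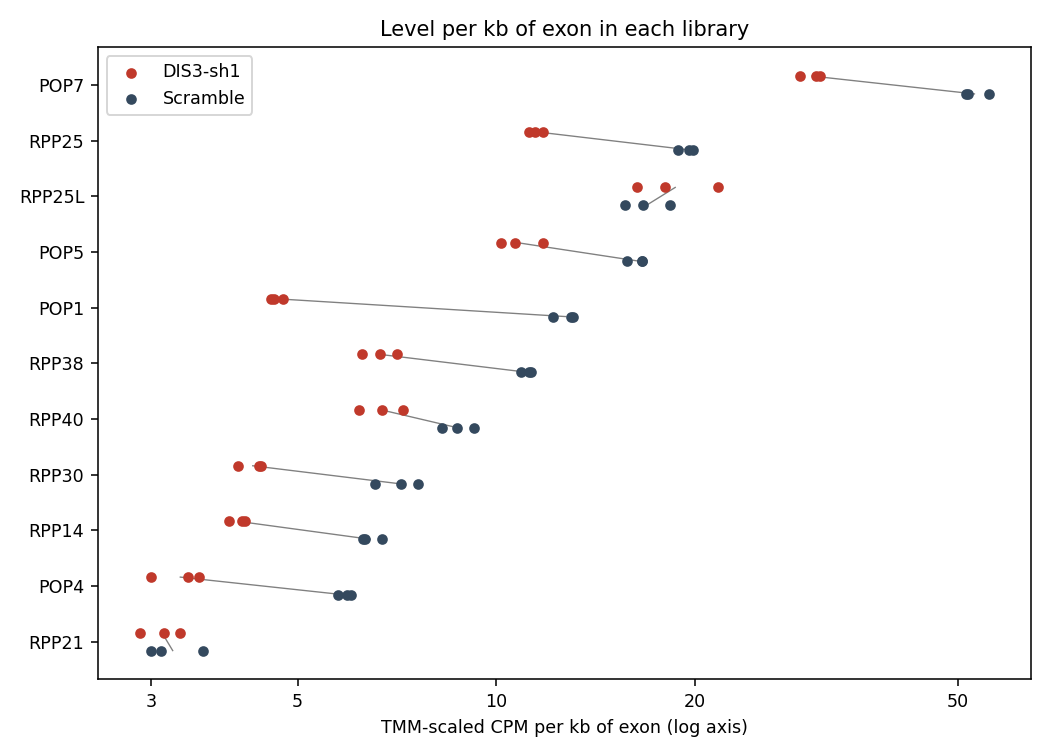
TMM-scaled CPM per kb of exon on a log axis for each library, with DIS3-sh1 (red) above Scramble (dark) and a line that joins the group means. The points of 9 genes lie to the left in DIS3-sh1 without overlap, and those of RPP21 and of the paralog RPP25L overlap between the groups.

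Spread within a group differed among the genes. The coefficient of variation of the 10 genes ran from 2.23% (POP1) to 8.66% (POP4) in DIS3-sh1, with a median of 5.21%, and from 1.76% (RPP38) to 9.82% (RPP21) in Scramble, with a median of 3.69%. The medians over all tested genes were 6.85% in DIS3-sh1 and 6.24% in Scramble. POP4, RPP40, POP5 and RPP21 lay above that median in DIS3-sh1, and RPP30 and RPP21 in Scramble.

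Neither RNA subunit was called lower. RPPH1, the RNA of RNase P, summed to 11215, 9380 and 9852 CPM in the DIS3-sh1 libraries, against 6249, 6265 and 6287 CPM in the Scramble libraries, and was called higher (log2 fold change 0.70 ± 0.08, adjusted p = 0.00125). RMRP summed to 3030, 3740 and 3959 CPM in DIS3-sh1, against 3191, 3106 and 3414 CPM in Scramble, and was not called (log2 fold change 0.14 ± 0.12, adjusted p = 0.352), although it was with limma-voom (adjusted p = 0.0392) and without DIS3-sh1 replicate 1 (adjusted p = 0.0231). Each RNA is listed under 2 identifiers with equal levels, which are added here and whose counts were tested singly. Whether reads were divided between the identifiers or counted under both is not given. If counted under both, the sums are too high. DIS3-sh1 replicate 1 had the highest RPPH1, the lowest RMRP and the highest share of small structural RNA of its group. Without it the log2 fold change of RPPH1 was 0.62, and the part of the structural RNA share in these results was not tested. Both RNAs are short, and the capture of such RNAs in libraries of this kind is uneven.

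The gene lists held the RNA subunits, RPP25L, mitochondrial RNase P, genes of tRNA and ribosomal RNA processing and 16 RNA polymerase III factors. Of the 51 genes tested in these lists together, 30 fell, 9 rose and 12 were not called. That is 58.8% lower and 17.6% higher, against 32.6% lower and 34.5% higher over all tested genes and 38.7% lower and 36.2% higher over coding genes. In mitochondrial RNase P, which is made of proteins alone, TRMT10C (log2 fold change -0.66 ± 0.06) and HSD17B10 (-0.44 ± 0.05) fell, while the nuclease subunit PRORP measured 27.8 ± 1.31 CPM in DIS3-sh1 and 27.8 ± 1.00 CPM in Scramble and was not called (adjusted p = 0.979). Of 5 genes listed under tRNA 3′ end processing and CCA addition, 4 fell (80.0%, against 38.7% of coding genes) and 1 rose. SSB, the La protein that binds the ends of RNA polymerase III transcripts, fell by 0.93 on the log2 scale, TRNT1, which adds the CCA end, by 0.89, ELAC2, the long form of RNase Z, by 0.62, and LARP7, a La-related protein, by 0.27. ELAC1, the short form, rose, with a mean of 6.60 ± 0.66 CPM in DIS3-sh1 and of 3.98 ± 0.64 CPM in Scramble (log2 fold change 0.72), and was named after its values were seen.

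Among 12 genes of tRNA splicing and ligation the median log2 fold change was -0.24, and 6 fell (50%, against 38.7% of coding genes), 2 rose and 4 missed the threshold. The RNA kinase gene CLP1 (-0.94 ± 0.09), the helicase gene DDX1 (-0.46), FAM98B (-0.44) and RTRAF (-0.41) of the ligase complex were lower, and TRPT1, a tRNA phosphotransferase gene, rose (0.91 ± 0.11). Of 12 nucleases of ribosomal RNA precursors and their partners, 10 fell (83.3%, against 38.7% of coding genes) and 2 rose, with a median of -0.35. The exonuclease genes ISG20L2 (-0.97 ± 0.04), ERI1 (-0.74) and XRN2 (-0.38) fell, and NOB1, which cuts the 3′ end of the small subunit RNA, rose (0.37 ± 0.04), as did C1D, a cofactor of the exosome (1.019 ± 0.11). The list of RNA polymerase III factors, the regulator MAF1 included, had 16 genes and a median of -0.15. Of these, 8 fell (50%, against 38.7% of coding genes), 3 rose and 5 missed the threshold. MAF1, a repressor of this polymerase and not part of its machinery, was among the 8 (-0.33). Of the 6 subunits of TFIIIC, GTF3C6 (-0.81), GTF3C4 (-0.66), GTF3C2 (-0.51), GTF3C1 (-0.39) and GTF3C5 (-0.18) fell, and GTF3C3 rose (0.16). TRPT1, C1D, GTF3C3, GTF3C5 and MAF1 were named after their values were seen.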

How the data were processed

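Per the labels' protocols, total RNA was depleted of ribosomal RNA and made into libraries with a stranded total RNA kit. The authors deposited 1 table of expected counts per gene, with fractional values. The submitters' processing notes name hg38 and the tools featureCounts 1.5.1, HISAT2 2.1.0, Bowtie2 2.3.5 and SAMtools. The tools' roles, the annotation and the use of strand in counting are not given in the sources used here, so values of overlapping and antisense genes are uncertain. Of 9 columns of per-sample values, 3 matched no label and were not used. The comparisons planned for DIS3-sh2 were therefore not made, so that 6 libraries entered the model where 9 were planned.

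Rounded counts went into a robust quasi-likelihood F-test (edgeR 4.0.16, R 4.3.3) with group as the only term, after filtering by expression and TMM scaling, with Benjamini-Hochberg adjustment over 19591 genes. Genes were called at an adjusted p under 0.05. The SE was obtained from the log2 fold change and the F statistic. CPM per kb used the union of exons of GENCODE 29, whose coordinates are printed. The labels call the 3 libraries of a group biological replicates. Same-numbered libraries had correlations of deviations of 0.01 to 0.04. These values do not settle whether the numbers pair the libraries, and the main model had no pairing. The 10 genes and the gene lists were chosen with earlier results of these data known. The rule for named genes took DIS3, the 10 genes, RMRP, RPPH1, RPP25L, genes that overlap one of the 10, and up to 4 genes of each list with the smallest p.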

Additional observations from a re-analysis of the deposited data

How the results depend on the processing

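The 9 genes called lower kept their direction and call in all 126 values from 14 alternatives each (RLE and upper-quartile scaling, no filter, DESeq2, limma-voom, the replicate number as a block, small structural, ribosomal and mitochondrial genes left out, overlapping genes added, and each library left out), and no gene of the 10 was called higher in any of them. With the replicate block 9 of the 10 genes were called lower, and 6397 genes in all were lower and 6769 higher. Each library correlated best with its own number, at most at 0.04, which is a hint from the data and not the design. Across the 6 left-out libraries 6111 to 6269 genes were lower and 6426 to 6567 higher, and with upper-quartile scaling 5471 were lower and 7745 higher. Upper-quartile scaling shifted the whole scale, with a median over all genes of 0.10 in place of 0.02 and over the 10 genes of -0.66 in place of -0.74, and with it RPP21 (0.024), RIDA (0.044) and PRORP (0.078), which lie near 0, changed sign. Over the 6 left-out libraries RPP21 ran from -0.113 to 0.026, with the sign changed without Scramble replicate 1, RIDA from -0.147 to 0.021 and PRORP from -0.040 to 0.020. None of these 3 genes was called in any setting, and the cause of the changes without a library was not tested. With the longest transcript as gene length, 16 of 20 levels per kb moved by more than 1 SD, up to 2.38 times. Alternatives planned for DIS3-sh2 were not run. At the depth of RPP21, about 100 counts a library, its interval of -0.33 to 0.22 leaves smaller changes undetectable.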
